A study of Mus musculus with 31 samples.

Results

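A set of 10 antioxidant enzyme genes was examined in kidney RNA-seq of a mouse model of polycystic kidney disease (PKD), chosen by symbol from the 23509 genes counted in each mouse. The 10 members are Gpx1, Gpx3, Gpx4, Cat, Sod1, Sod2, Nqo1, Gclc, Txnrd1 and Srxn1, and all 10 were present and passed the filter on low counts. Kidneys came from 31 mice at about 30 weeks of age, 1 library per mouse. Of these, 12 were Pcy/CD1 mice injected subcutaneously with PBS from 5 weeks of age, 14 were Pcy/CD1 mice given RGLS4326 at 25 mg/kg by the same route every month from 5 weeks, and 5 were untreated, age-matched male CD1 mice, the wild type. The study describes the Pcy/CD1 mice as male too. Pcy/CD1 mice are an inherited, slowly progressing cyst model kept on the CD1 background. RGLS4326 is a chemically modified oligonucleotide that binds and inhibits the microRNA miR-17. The study describes the PBS injections as weekly, as does 1 field of the labels, while another label field reads monthly, so the injection schedules of the Pcy/CD1 groups may differ.

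Cells remove reactive oxygen species in a relay. The superoxide dismutases Sod1 (cytosol) and Sod2 (mitochondria) turn superoxide into hydrogen peroxide, which catalase (Cat, in peroxisomes) and the glutathione peroxidases Gpx1, Gpx3 and Gpx4 then reduce. Gclc makes the rate-limiting step of glutathione synthesis, thioredoxin reductase 1 (Txnrd1) and sulfiredoxin (Srxn1) keep the thioredoxin and peroxiredoxin system reduced, and Nqo1 reduces quinones. The transcription factor Nrf2 (gene Nfe2l2) drives several of these genes, among them Nqo1, Gclc, Txnrd1 and Srxn1, through the antioxidant response element. Proximal tubule cells, which are rich in mitochondria and peroxisomes, are a main site of these enzymes in the kidney and the main source of plasma Gpx3.

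A stretch of sequence separates the members into chemical classes. Gpx1, Gpx3, Gpx4 and Txnrd1 are selenoproteins: in their reading frames a TGA codon, elsewhere a stop signal, is annotated as selenocysteine, the catalytic residue. The codon (capitals) is shown with 15 bases on each side, from GENCODE vM21 transcripts of GRCm38, because these 4 genes depend on the selenoprotein synthesis genes described later; the coordinates are those of the codon, all on the plus strand.
Gpx1, chr9:108339451-108339453: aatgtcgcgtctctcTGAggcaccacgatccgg
Gpx3, chr11:54907256-54907258: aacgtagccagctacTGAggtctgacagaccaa
Gpx4, chr10:80054737-80054739: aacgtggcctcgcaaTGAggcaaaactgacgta
Txnrd1, chr10:82896037-82896039: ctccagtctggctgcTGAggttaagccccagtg
The other 6 members have no selenocysteine annotated.

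Because the drug acts on miR-17, the members were searched for the seed match of that microRNA. Mature miR-17-5p, from RefSeq on GRCm38.p6 (chr14:115043684-115043706, plus strand), is shown with its seed, bases 2 to 8, in capitals.
mmu-miR-17-5p: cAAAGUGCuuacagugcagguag
The complement of the seed, GCACTTT, was found in the longest annotated 3′ UTR of 0 of the 10 members and in 11.7% of 21005 genes with one (2468 genes). The members' longest 3′ UTRs ran from 72 bases in Sod1 to 4963 bases in Sod2, beside a median of 961 bases over all genes. The absence of these letters says nothing about other forms of pairing.

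The core letters of the antioxidant response element, TGACNNNGC, were searched on both strands of RefSeq promoter windows of 300 bases on GRCm38.p6. Each window held 250 bases before and 50 after a transcript start. The motif was present in 12.4% of 32851 windows, and 14 windows represented 9 members, Gclc having no entry. Matches lay in 3 of the 14 windows, 1 each of Sod1, Txnrd1 and Srxn1. They are shown in capitals in the direction of transcription with up to 25 flanking bases so that the promoters of these 3 members can be read beside their values. In all 3 the motif is on the opposite strand, so the capitals spell its complement. The coordinates are those of the capitals on the plus strand, and the matches begin at base -56 (Sod1), -92 (Txnrd1) and 29 (Srxn1) of an annotated transcript start. For Sod1 and Srxn1 that start lies close to the gene's annotated beginning, and for Txnrd1 it is an internal one; the 2 other windows of Txnrd1 held no match.
Sod1, chr16:90220706-90220714: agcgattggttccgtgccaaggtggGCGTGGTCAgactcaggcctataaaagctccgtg
Txnrd1, chr10:82859114-82859122: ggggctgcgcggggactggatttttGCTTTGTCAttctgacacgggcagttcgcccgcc
Srxn1, chr2:152105552-152105560: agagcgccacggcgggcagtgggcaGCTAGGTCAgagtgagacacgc
The windows of Cat, Nqo1, Gpx1, Gpx3, Gpx4 and Sod2 held no match. Sequence outside the windows was not searched, so a window without a match does not show that a gene lacks the element. As given below, the 3 genes with a match had log2 fold changes in PBS against wild type of -0.50 (Sod1), -0.30 (Txnrd1) and 0.04 (Srxn1), the first 2 past the test and the last not, while Cat, with no match, had the largest fall. With total counts for scaling Sod1 was -0.14 and passed, Txnrd1 was 0.06 and did not pass, and Srxn1 was 0.40 and passed.

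Between 14892524 and 27459962 counts per mouse fell on genes. Levels are given as CPM, a gene's count relative to the mouse's total after TMM scaling of that total, and differences as log2 fold changes with standard errors (SE), with adjusted p-values from edgeR's quasi-likelihood test and Benjamini-Hochberg adjustment over 15185 genes. A gene passed the test where the adjusted p was under 0.05. TMM, which assumes that most genes do not change, gave factors of 0.818 to 0.854 in wild type and up to 1.17 with PBS. When total counts were used in their place, the median log2 fold change of all genes in PBS against wild type moved from 0.01 to 0.38 and the genes higher or lower from 5721 and 5560 to 9513 and 2373. RGLS4326 mouse 9 stood apart from its group. Its injury gene Lcn2 read 2.76 CPM, beside a group mean of 333 ± 193 CPM (SD, n = 14). That value lies within the wild-type range (0.944 to 11.2 CPM), whereas PBS-treated mice ran from 205 to 1205 CPM. Its Gpx3 (20058 CPM) was also within the wild-type range, and its Cat (1220 CPM) just below the lowest wild-type mouse (1230 CPM). Why this library read near wild type in these genes was not tested. The main results that include mouse 9 are also given without it. The closest pair of libraries, from wild-type mice 3 and 4, differed by more than counting noise (chi-square per gene 2.69). For wild-type mice 1 and 2 the value was 16.05. Repeat libraries of 1 mouse may also exceed counting noise, so the value cannot show that mice 3 and 4 are separate animals. Each mouse was counted as 1 replicate because the labels number the mice separately.

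In wild-type kidney the members spanned a wide range of expression. Per kilobase of annotated exon (CPM divided by the gene's exon length), Gpx3, the secreted glutathione peroxidase, led with 11050 ± 728 CPM per kb (SD, n = 5). It was followed by the cytosolic enzyme Gpx1 at 1245 ± 67.5, Cat at 485 ± 24.5, the lipid hydroperoxide reductase Gpx4 at 293 ± 7.73 and Sod1 at 150 ± 11.3 CPM per kb. Lower were Gclc at 78.2 ± 5.54, Sod2 at 36.1 ± 0.690, Nqo1 at 29.5 ± 3.04, Txnrd1 at 26.5 ± 1.74 and Srxn1 at 23.2 ± 3.18 CPM per kb. In this order every neighbouring pair was separated in the 5 mice except Nqo1 and Txnrd1, and Txnrd1 and Srxn1, whose ranges overlapped. The length joins all annotated exons of a gene, 3970 bases for Sod1 and 10008 for Sod2, so the order depends on it. In mean CPM, Sod1 (596) was above Gpx4 (505) and Sod2 (361) above Gclc (294). Nqo1 (45.8) was then below Txnrd1 (188) and Srxn1 (65.3). Gpx3 was the fourth most counted gene of the kidney in all 3 groups, with a mean of 1.68% of all gene counts in wild type, 1.28% with PBS and 1.42% with RGLS4326.

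**Figure D1:**
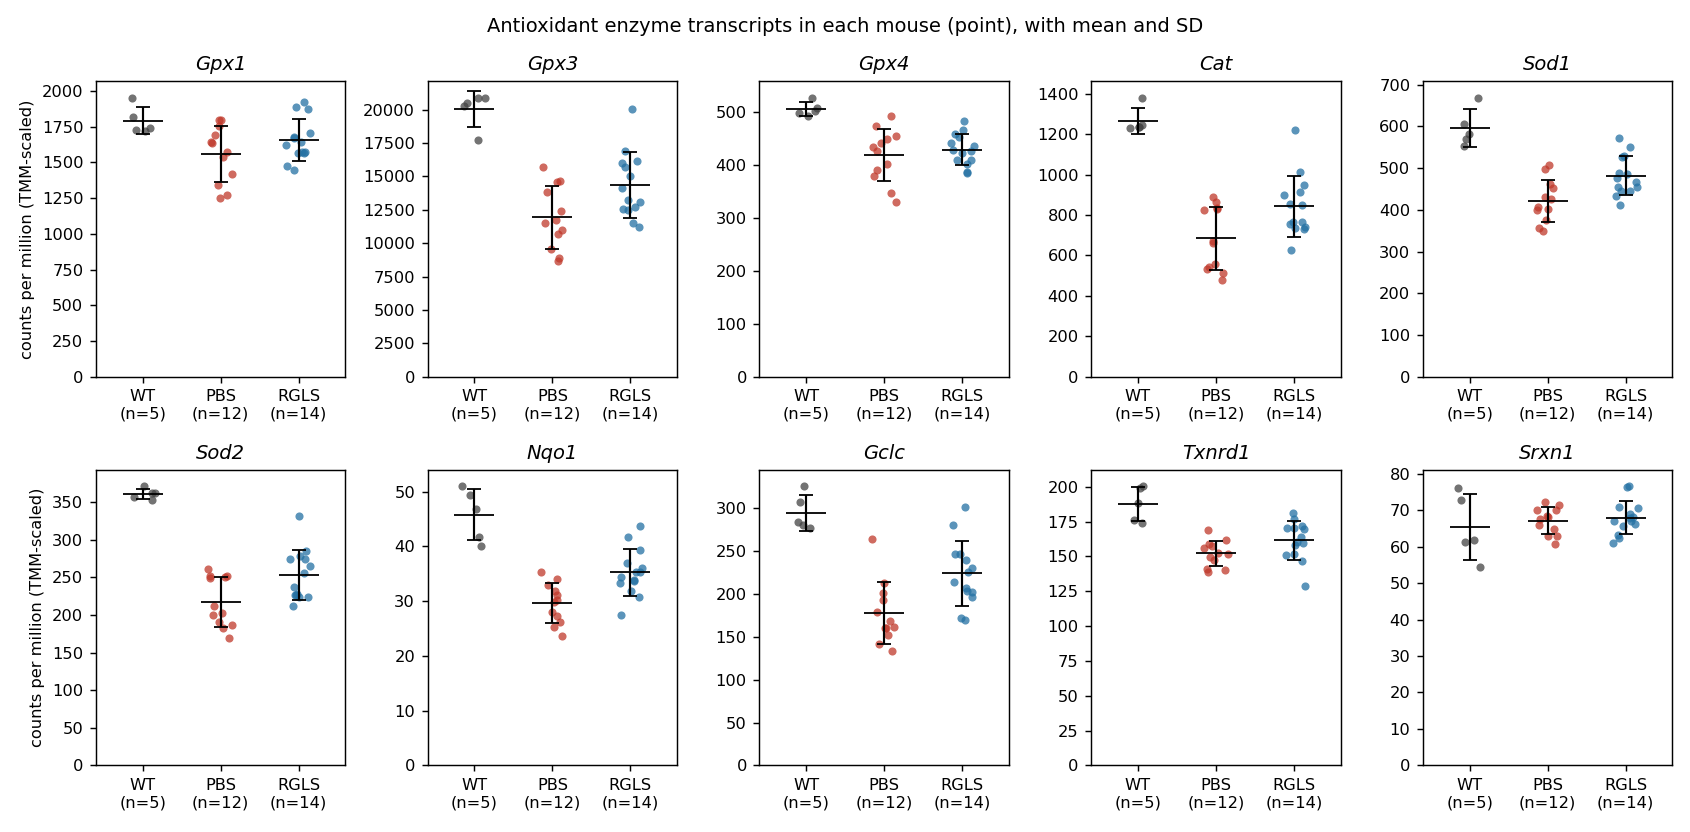
Expression of the 10 genes in CPM (vertical axes, each starting at 0) in wild-type (WT), PBS-treated (PBS) and RGLS4326-treated (RGLS) mice, 1 point per mouse with the group mean and SD. In 7 genes (Gpx3, Cat, Sod1, Sod2, Nqo1, Gclc and Txnrd1) every PBS-treated mouse lies below every wild-type mouse, whereas for Srxn1 all 12 PBS-treated mice lie within the wild-type range.

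The comparison of PBS-treated Pcy/CD1 with wild-type mice shows the members in cystic kidney. Of the 10 members 9 were lower (background 36.6% of all genes tested) and 0 were higher (background 37.7%). With total counts 6 were lower and 2 higher (15.6% and 62.6% of all genes on that scale), since Gpx4 and Txnrd1 changed sign without a call, and Gpx1 was then called higher, as was Srxn1. DESeq2 also gave 9 lower and 0 higher (36.6% and 38.0% of all genes in that test). The median log2 fold change of the members was -0.56, beside 0.01 over all genes tested. With a fall of over 0.5 as a second requirement 5 of 10 remained (background 17.8%), namely Cat, Gpx3, Gclc, Sod2 and Nqo1. Under total counts only Cat did (-0.54), beside 7.05% of all genes. Gpx3 was then -0.39, Sod2 -0.38, Gclc -0.37 and Nqo1 -0.27. In 7 of 10 the groups did not overlap (background 21.9%). Fewer cells of a type and less RNA per cell cannot be told apart in whole-kidney RNA.

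Catalase fell furthest. Cat, on the minus strand of chr2:103453849-103485160 (GRCm38), read 1380, 1245, 1238, 1237 and 1230 CPM in the 5 wild-type mice, whereas PBS-treated mice ran from 477 through a median of 666 to 889 CPM. The means were 1266 ± 63.9 (SD, n = 5) and 684 ± 156 CPM (SD, n = 12). All PBS-treated mice were below all wild-type mice, and the log2 fold change was -0.89 (SE 0.13, adjusted p = 9.72e-07).

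The glutathione peroxidases fell by unequal amounts. Gpx3 (chr11:54902453-54910377, plus strand) read 20252, 20841, 20881, 20474 and 17719 CPM in wild type and 8649 to 15733 CPM (median 11633) with PBS, again without overlap. Its log2 fold change was -0.75 (SE 0.13, adjusted p = 1.09e-05). Gpx4 (chr10:80047166-80056439, plus strand) read 492 to 527 CPM in wild type and 331 to 493 CPM with PBS, with 11 of 12 PBS-treated mice below the wild-type range and a log2 fold change of -0.27 (SE 0.07, adjusted p = 0.000824). Gpx1 (chr9:108338903-108340343, plus strand) differed least of these, with 1723 to 1953 CPM in wild type, 1252 to 1796 CPM with PBS and a log2 fold change of -0.20 (SE 0.08, adjusted p = 0.0267). Gpx1 did not pass when wild-type mouse 1 or 5 was left out (adjusted p of up to 0.0943 over all mice left out in turn). The directions of Gpx1 and Gpx4 rested on the scaling: with total counts Gpx1 had a log2 fold change of 0.16 (adjusted p = 0.0271) and Gpx4 one of 0.09 (adjusted p = 0.187), or -0.22 and -0.29 relative to the median of all genes.

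Both superoxide dismutases fell. Sod2 (chr17:13006846-13040063, plus strand) read 363, 362, 357, 371 and 353 CPM in wild type, a spread of 1.91% of the mean, and 170 to 261 CPM (median 208) with PBS. The log2 fold change was -0.73 (SE 0.09, adjusted p = 9.50e-08), the smallest adjusted p of the members. Sod1 (chr16:90220754-90226329, plus strand, overlapping Scaf4 on the other strand) read 668, 605, 581, 571 and 553 CPM in wild type and 349 to 507 CPM (median 416) with PBS, without overlap. Its log2 fold change was -0.50 (SE 0.08, adjusted p = 1.84e-06). Under total counts Sod2 was -0.38 and Sod1 -0.14 (edgeR's adjusted p = 2.01e-06 and 0.0251).

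The Nrf2-regulated members split. Gclc, the catalytic subunit of glutamate-cysteine ligase (chr9:77754535-77794485, plus strand), read 325, 307, 280, 276 and 283 CPM in wild type and 133 to 264 CPM (median 165) with PBS. It fell by 0.73 on the log2 scale (SE 0.12, adjusted p = 3.58e-06). Nqo1 (chr8:107388225-107403206, minus strand) read 51.0, 49.4, 40.1, 41.8 and 46.9 CPM in wild type and 23.6 to 35.3 CPM (median 30.1) with PBS, and fell by 0.63 (SE 0.09, adjusted p = 2.72e-07). Txnrd1 (chr10:82833951-82897712, plus strand, overlapping Eid3 on the same strand) read 174 to 200 CPM in wild type and 139 to 169 CPM with PBS, and fell by 0.30 (SE 0.06, adjusted p = 3.26e-05). With total counts its log2 fold change was 0.06 (adjusted p = 0.366), a difference of -0.32 from the median of all genes. Srxn1 (chr2:152105516-152111376, plus strand) was the only member that did not pass: it read 54.4, 76.1, 61.9, 61.3 and 72.9 CPM in wild type and 60.8 to 72.2 CPM (median 67.9) with PBS, with a log2 fold change of 0.04 (SE 0.06, adjusted p = 0.564). Under total counts Srxn1 was higher with PBS by 0.40 (adjusted p = 1.15e-05), a difference of 0.03 from the median of all genes.

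Mice in the deposited libraries are numbered in 3 series that restart in each group (4 PBS-treated mice in each, and 2, 2 and 1 wild-type mice). In PBS against wild type the members lower numbered 6, 7 and 5 in the 3 series fitted alone, where 25.6%, 22.1% and 18.7% of all genes were lower. The 2 wild-type mice of series 2 are mice 3 and 4, the closest pair of libraries. Series 3 has a single wild-type mouse, which is assumed to vary like the other groups. Cat, Sod1, Sod2, Nqo1 and Gclc were lower in each, with log2 fold changes of -0.91, -0.79 and -0.91 for Cat and -0.71, -0.68 and -0.76 for Sod2. Gpx1 (-0.24, -0.07 and -0.28) and Gpx4 (-0.30, -0.21 and -0.27) passed in none of the 3.

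**Figure D2:**
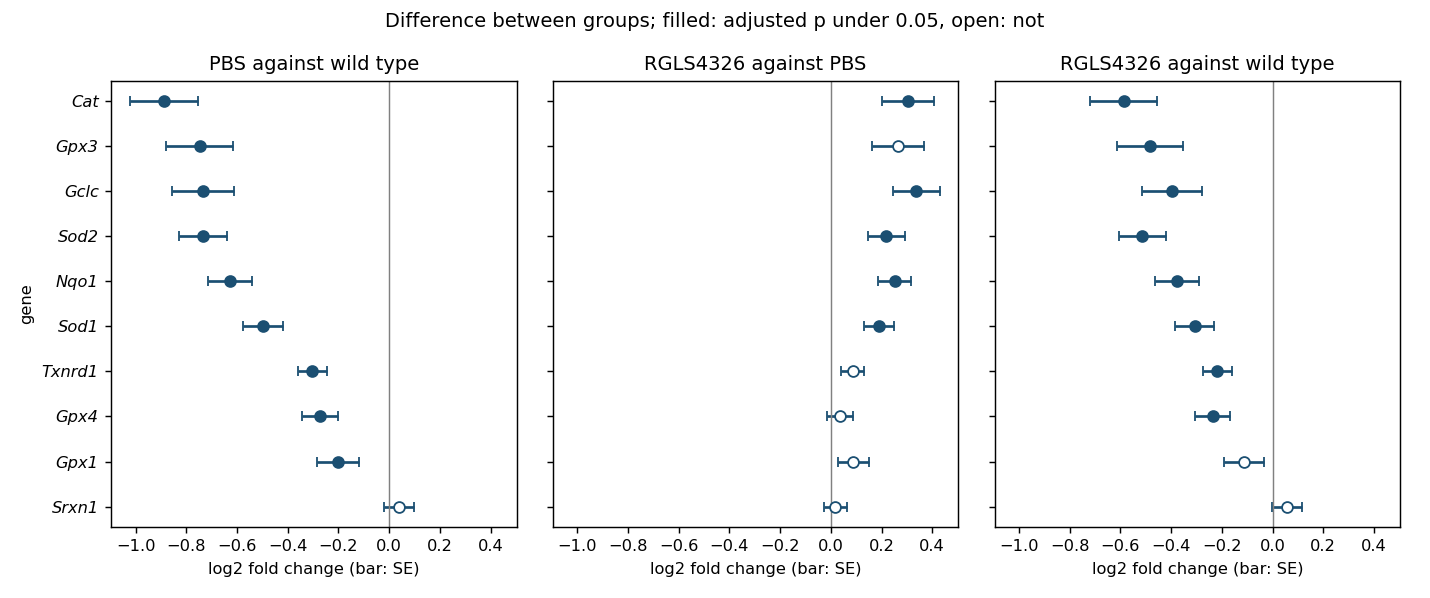
Log2 fold changes (horizontal axes) of the 10 genes in the 3 comparisons, with bars of 1 SE; filled points passed an adjusted p of 0.05 over all genes and open points did not. Against wild type the PBS values run from -0.89 (Cat) to 0.04 (Srxn1), and RGLS4326 against PBS runs from 0.02 (Srxn1) to 0.34 (Gclc).

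RGLS4326 against PBS addresses whether the treatment moved these transcripts. With RGLS4326, 5 of the 10 members were higher (background 9.15%) and 0 were lower (background 6.66%). DESeq2 called 6 higher, adding Gpx3, and 0 lower (12.4% and 8.74% of all genes in that test). The differences were small: none of the 5 exceeded 0.5 on the log2 scale (background 2.15% of genes past both limits), and the median over the members was 0.20, beside -0.00 over all genes tested. The 5 were Gclc, Cat, Nqo1, Sod2 and Sod1. This comparison and that of PBS with wild type share the PBS-treated mice.

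Gclc was 169 to 301 CPM with RGLS4326 (median 219), with 2 of 14 mice above all PBS-treated mice, and its mean was 224 ± 37.5 CPM (SD, n = 14) against 177 ± 36.2 CPM (SD, n = 12). It rose by a log2 fold change of 0.34 (SE 0.09, adjusted p = 0.0223). Cat was 626 to 1220 CPM (median 808), with 5 of 14 mice above all PBS-treated mice, and rose by 0.30 (SE 0.10, adjusted p = 0.0449). Nqo1 was 27.5 to 43.8 CPM (median 34.9), with 7 of 14 mice above all PBS-treated mice, and rose by 0.25 (SE 0.07, adjusted p = 0.0200). In every member the ranges of the 2 Pcy/CD1 groups overlapped.

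Sod2 was 212 to 331 CPM with RGLS4326 (median 246), with 6 of 14 mice above all PBS-treated mice, and rose by 0.22 (SE 0.07, adjusted p = 0.0411). Sod1 was 412 to 571 CPM (median 471) and rose by 0.19 (SE 0.06, adjusted p = 0.0338). Gpx3 was 11224 to 20058 CPM (median 13661), and its log2 fold change of 0.27 (SE 0.10, adjusted p = 0.0653) did not pass. For the remaining members the values were 0.09 (95% interval -0.03 to 0.21) for Gpx1, 0.09 (-0.00 to 0.17) for Txnrd1, 0.04 (-0.06 to 0.14) for Gpx4 and 0.02 (-0.07 to 0.10) for Srxn1. Under total counts, where the median of all genes was -0.12, these 4 were -0.02, -0.03, -0.07 and -0.09, and 3 of 10 members passed as higher (Gclc, Cat and Nqo1), beside 3.63% of all genes higher and 27.2% lower on that scale.

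The treatment calls lay close to the threshold. Without RGLS4326 mouse 9, whose Cat (1220 CPM), Gpx3 (20058 CPM), Sod1 (571 CPM) and Sod2 (331 CPM) were the highest of its group, 2 of 10 passed, beside 4.66% of all genes higher in that fit: Gclc at 0.33 (adjusted p = 0.0349) and Nqo1 at 0.22 (adjusted p = 0.0335). Cat was then 0.25 (adjusted p = 0.0806), Sod2 0.18 (adjusted p = 0.0717) and Sod1 0.17 (adjusted p = 0.0589). The same count of 2 was reached when PBS mouse 2, 3, 5, 9 or 10 or RGLS4326 mouse 8, 10 or 13 was left out. Gclc and Nqo1 passed whichever mouse was left out, with adjusted p-values of at most 0.0486 and 0.0456. Gpx3 passed when PBS mouse 7, 8 or 12 or RGLS4326 mouse 1, 2 or 11 was left out, and Txnrd1 without RGLS4326 mouse 14. Within library number series 1, 2 and 3 fitted alone, 0 of 10 members passed in any; Gclc had log2 fold changes of 0.02, 0.57 and 0.38, Cat 0.09, 0.37 and 0.41, and Nqo1 0.18, 0.36 and 0.18. In none of the 3 series did any gene of the whole table pass edgeR's test, where 280, 2981 and 3045 genes had an unadjusted p under 0.05; DESeq2 was not run on single series.

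RGLS4326-treated Pcy/CD1 mice were also set beside wild type. Of the 10 members 8 were lower than in wild type (background 32.4%) and 0 were higher (background 32.5%). With a fall of over 0.5 as well, 2 of 10 remained (background 11.3%), Cat and Sod2, and in 3 of 10 (Cat, Sod2 and Gpx4) the groups did not overlap (background 9.75%). Without RGLS4326 mouse 9 that count was 5 of 10, with Gpx3 and Sod1 added, beside 17.2% of all genes. The log2 fold changes were -0.59 (SE 0.13, adjusted p = 0.000350) for Cat, -0.51 (SE 0.09, adjusted p = 2.78e-05) for Sod2, -0.48 (SE 0.13, adjusted p = 0.00205) for Gpx3, -0.40 (SE 0.12, adjusted p = 0.00481) for Gclc and -0.38 (SE 0.09, adjusted p = 0.000378) for Nqo1. Sod1, Gpx4 and Txnrd1 were lower by smaller amounts, with -0.31, -0.24 and -0.22. Gpx1 (-0.11, adjusted p = 0.215) and Srxn1 (0.06, adjusted p = 0.399) did not pass. Library number series 1 and 2 fitted alone gave 6 and 0 members lower (23.5% and 0.632% of all genes). In series 1, 2 and 3 alone, the last with 1 wild-type mouse, Cat was -0.83, -0.42 and -0.50 and Gclc -0.65, -0.11 and -0.42. Under total counts 3 of 10 members (Cat, Sod2 and Gpx3) were lower and 1 higher (13.7% and 55.6% of all genes on that scale), Gpx1, Gpx4 and Txnrd1 were 0.14, 0.02 and 0.04 with no call, and Srxn1 was higher by 0.31 (adjusted p = 0.000374), with the median of all genes at 0.26. Without RGLS4326 mouse 9 again 8 members were lower (33.5% of all genes), 3 of them by over 0.5 (12.5% of all genes), with Cat at -0.63, Sod2 at -0.55 and Gpx3 at -0.52.

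Markers of kidney cell types moved with these groups. Of all genes tested, 36.6% were lower and 37.7% higher in PBS against wild type. In RGLS4326 against PBS 9.15% were higher and 6.66% lower, and 4.66% and 3.48% without RGLS4326 mouse 9. All 15 proximal tubule markers were lower with PBS than in wild type (15 of 15, median log2 fold change -1.21), and their summed level was 68524 to 84196 CPM in wild type, 24874 to 49440 CPM with PBS and 35651 to 65529 CPM with RGLS4326. One of them, Lrp2, the endocytic receptor megalin, had means of 3609 ± 189 (SD, n = 5), 1430 ± 446 (SD, n = 12) and 1883 ± 493 CPM (SD, n = 14). Of the 15, 6 were higher and 0 lower in RGLS4326 against PBS (median 0.37), and without RGLS4326 mouse 9 only 1 was higher (median 0.32). In that comparison 4 of 7 collecting duct markers were lower and 0 higher (median -0.33; again 4 lower without mouse 9), 2 of 6 thick ascending limb and distal tubule markers were higher (0 without mouse 9), and no macrophage, fibroblast, endothelial or injury marker passed (1 macrophage marker was higher without mouse 9). Of 7 collecting duct markers 5 were higher and 1 lower with PBS. Also higher were 9 of 9 macrophage, 6 of 8 fibroblast and 7 of 7 tubular injury markers. The summed macrophage markers were 185 to 207 CPM in wild type, 445 to 793 with PBS and 185 to 893 with RGLS4326, and the summed injury markers 516 to 1210, 3398 to 8797 and 1057 to 7219 CPM. Of the thick ascending limb and distal tubule markers 4 of 6 were lower with PBS and 1 higher, of the endothelial markers 3 of 6 were lower, and of 7 red blood cell markers 5 were at 0 counts in all wild-type and 5 in all PBS-treated mice, and Alas2, the erythroid enzyme of heme synthesis and the only 1 of the 7 tested, was lower with PBS (-2.76, adjusted p = 3.82e-07, 5.80 against 0.851 CPM). Reads without a unique place (17.8% to 21.2% of each file's counts) were not assigned to genes. The 0 counts therefore do not show that these genes were absent, and the share of such reads in them was not tested. Outside the red blood cell list no marker was at 0 throughout a group. Their part in the members' values was not tested, other than by the relation described next.

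Within each Pcy/CD1 group, each member was compared across mice with the mean log2(CPM + 1) of the 15 proximal tubule markers, 20 relations in all, with p-values from two-sided permutation tests adjusted over the 20 (the smallest unadjusted p, 1e-05 for Cat and also for Sod2 with RGLS4326, is the smallest that 100000 resamples can give). Cat had the highest coefficients, with Pearson's r of 0.99 and Spearman's rho of 0.94 in the 12 PBS-treated mice (adjusted p = 6.67e-05 and 0.000440, permutation tests) and 0.97 and 0.94 in the 14 RGLS4326-treated mice (adjusted p = 6.67e-05 and 0.000200, permutation tests). Without the 2 mice farthest from the median marker level r was 0.99 and 0.95. Sod2 did likewise, with r of 0.97 and 0.97 and rho of 0.91 and 0.87 (adjusted p for r = 8.00e-05 and 6.67e-05, permutation tests), and 0.96 and 0.93 without those mice. Gpx3 had r of 0.85 with PBS (rho 0.87) and 0.91 with RGLS4326 (rho 0.87), with adjusted p-values for r of 0.00287 and 8.00e-05 in permutation tests, and r of 0.78 and 0.87 without those mice.

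The other members had lower r than Cat, Sod2 and Gpx3 in the same group, but differences in r between members were not tested. With PBS Sod1 lay close to Gpx3 (0.78 and 0.85). Sod1 had r of 0.78 and 0.75, rho of 0.78 and 0.67 and r of 0.77 and 0.62 without those mice (adjusted p for r = 0.00982 and 0.00503, permutation tests). Nqo1 had r of 0.71 (rho 0.76, r 0.61 without those mice) with PBS (adjusted p = 0.0276, permutation test) and 0.45 with RGLS4326, where it fell to 0.00 without the 2 farthest mice. Gpx1 with PBS had r of 0.64, which did not pass (adjusted p = 0.0566, permutation test), and rho of 0.75, which did (adjusted p = 0.0154, permutation test). The r of Gclc (0.60 and 0.41), Gpx1 with RGLS4326 (0.47), Gpx4 (0.36 and 0.48), Txnrd1 (0.11 and 0.17) and Srxn1 (-0.11 and -0.24) did not pass. The 2 measures of a mouse share a library and its scaling. With total counts the relations of Cat (r 0.99 and 0.95), Sod2 (0.94 and 0.92) and Gpx3 (0.74 and 0.82) still passed, those of Sod1 (0.46 and 0.27) and Nqo1 (0.34 and -0.04) did not, and Srxn1 passed with a negative r (-0.84 and -0.82, adjusted p = 0.00346 and 0.00180, permutation tests). Without RGLS4326 mouse 9 the r of Cat, Sod2 and Gpx3 in its group was 0.96, 0.94 and 0.85, and Gpx1 passed with r of 0.63 (adjusted p = 0.0446, permutation test). Taken as deviations from the mean of each library number series, with permutation within series, the relations gave r of 0.997 and 0.97 for Cat, 0.97 and 0.96 for Sod2 and 0.88 and 0.91 for Gpx3, and 9 of 20 passed, as before.

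**Figure D3:**
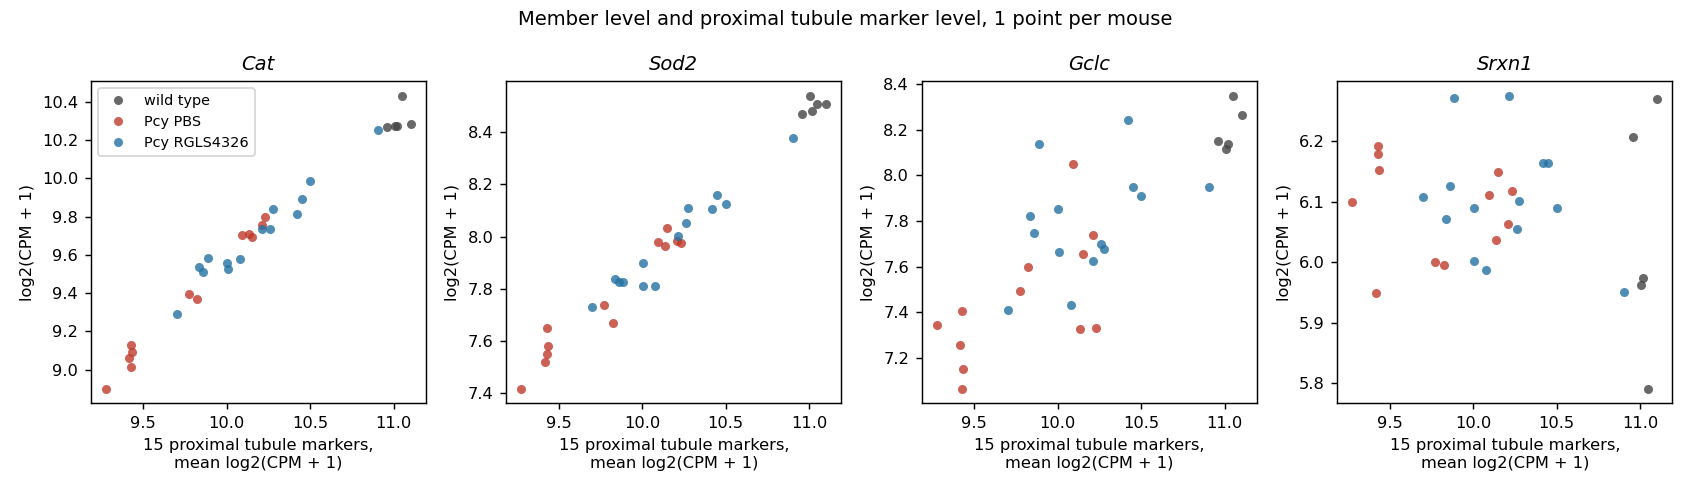
Level of Cat, Sod2, Gclc and Srxn1 as log2(CPM + 1) (vertical axes) against the mean log2(CPM + 1) of 15 proximal tubule markers (horizontal axes), 1 point per mouse, coloured by group; axes do not start at 0. Cat (r = 0.99 within PBS-treated and 0.97 within RGLS4326-treated mice) and Sod2 lie along a line, Gclc scatters (0.60 and 0.41) and Srxn1 has r of -0.11 and -0.24 on this TMM-based scale.

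In all 9 lists of other genes of the pathway, with 106 genes of which 101 were tested and a few stood on more than 1 list, values came from the same fit. Of the 101, 63 were lower and 23 higher in PBS against wild type, with a median log2 fold change of -0.33, beside the background of 36.6% of all genes lower and 37.7% higher. In RGLS4326 against PBS 18 were higher and 4 lower, with a median of 0.09, beside a background of 9.15% and 6.66%. Without RGLS4326 mouse 9 these were 8 and 3, with a median of 0.07 and 4.66% and 3.48% of all genes called, and leaving out each mouse in turn gave from 4 to 33 higher and from 0 to 10 lower. These splits depended on the scaling: total counts gave 32 lower and 42 higher in the first comparison and 10 higher and 19 lower in the second, where 15.6% and 62.6%, and 3.63% and 27.2%, of all genes were called on that scale. For the genes that the naming rule picked, the directions given below held with total counts, but in RGLS4326 against PBS the calls of Sod3, Msra, Sqstm1, Fth1 and Idh1 did not. Of 17 genes it picked for their call in RGLS4326 against PBS, 11 passed without RGLS4326 mouse 9, and Sod3, Chac2, Msra, Sqstm1, Idh1 and Ehhadh did not.

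Of 12 other peroxidases and dismutase partners tested, 7 were lower and 5 higher with PBS (background 36.6% and 37.7%). Total counts gave 4 and 5 (background 15.6% and 62.6%). Prdx6, a peroxiredoxin that acts on phospholipid peroxides, fell by 0.73 (SE 0.09, adjusted p = 3.98e-08), from 254 ± 19.2 CPM (SD, n = 5) to 154 ± 12.1 CPM (SD, n = 12). Gpx7, a peroxidase of the endoplasmic reticulum, rose by 2.61 (SE 0.34, adjusted p = 1.26e-07), from 0.944 to 5.78 CPM. In RGLS4326 against PBS the peroxiredoxins Prdx1 of the cytosol (0.21, adjusted p = 0.0122) and Prdx3 of the mitochondria (0.24, adjusted p = 0.0180) and the extracellular dismutase Sod3 (0.22, adjusted p = 0.0407) rose, 3 of the 12, and 1 was lower (2 and 0 without RGLS4326 mouse 9).

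In glutathione synthesis and recycling 7 of 13 were lower and 3 higher with PBS (background 36.6% and 37.7%). Total counts gave 4 and 6 (background 15.6% and 62.6%). Gclm, the modifier subunit that pairs with Gclc, averaged 284 ± 13.2 CPM in the 5 wild-type mice, 161 ± 23.7 CPM in the 12 PBS-treated mice and 197 ± 27.6 CPM in the 14 RGLS4326-treated mice (SD). It fell by 0.82 with PBS (adjusted p = 2.38e-08) and rose by 0.29 with RGLS4326 (adjusted p = 0.0157), beside -0.73 and 0.34 for Gclc. Ggt1, the brush-border enzyme that breaks down glutathione outside the cell, had the largest fall of the list, -1.04 (SE 0.12, adjusted p = 3.06e-08), and Ggt7 the largest rise among genes of at least 1 CPM, 0.52 (SE 0.17, adjusted p = 0.00671). Chac2, which degrades glutathione in the cytosol, rose by 0.34 with RGLS4326 (adjusted p = 0.0351).

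In the thioredoxin and glutaredoxin system 9 of 13 were lower and 4 higher with PBS (background 36.6% and 37.7%). Total counts gave 4 and 6 (background 15.6% and 62.6%). Glutaredoxin (Glrx) fell by 0.71 (SE 0.11, adjusted p = 1.48e-06) and the methionine sulfoxide reductase Msrb3 rose by 1.02 (SE 0.16, adjusted p = 1.12e-06). Txnip, which binds and inhibits thioredoxin, averaged 282 ± 42.0 CPM in the 5 wild-type mice, 391 ± 45.4 CPM in the 12 PBS-treated mice and 323 ± 58.9 CPM in the 14 RGLS4326-treated mice (SD). It rose by 0.47 with PBS (adjusted p = 0.000493) and fell by 0.28 with RGLS4326 (adjusted p = 0.0289). Msra, another methionine sulfoxide reductase, rose by 0.20 with RGLS4326 (adjusted p = 0.0421).

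Whether Nrf2 and its inhibitor passed the test depended on the scaling. Nfe2l2 and Keap1 are named here after their values were seen. Nfe2l2 read 88.9, 95.3 and 89.2 CPM on average in wild type, PBS-treated and RGLS4326-treated mice (log2 fold changes 0.10 and -0.10, adjusted p = 0.0566 and 0.0542), and Keap1 57.1, 55.5 and 54.2 CPM (-0.04 and -0.03, adjusted p = 0.373 and 0.433). With total counts both passed as higher with PBS, Nfe2l2 at 0.47 (adjusted p = 2.50e-06) and Keap1 at 0.33 (adjusted p = 1.34e-05), beside a median of all genes of 0.38, and as lower with RGLS4326, at -0.21 and -0.15 beside -0.12. Cul3, the scaffold of the ubiquitin ligase that Keap1 serves, fell by 0.87 with PBS (SE 0.12, adjusted p = 2.01e-07) and rose by 0.32 with RGLS4326 (adjusted p = 0.0271). The small Maf protein Maff rose by 1.59 with PBS (SE 0.28, adjusted p = 1.19e-05). The related factor Nfe2l1 fell by 0.10 with RGLS4326 (adjusted p = 0.0291), and the autophagy receptor Sqstm1 rose by 0.13 (adjusted p = 0.0411). Of 10 genes in this list 5 were lower and 2 higher with PBS (background 36.6% and 37.7%). Total counts gave 1 and 5 (background 15.6% and 62.6%).

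Of 12 other Nrf2 target genes 6 were lower and 4 higher with PBS (background 36.6% and 37.7%). Total counts gave 3 and 5 (background 15.6% and 62.6%). Thioredoxin (Txn1) rose by 0.51 (SE 0.09, adjusted p = 1.31e-05), from 173 ± 10.1 CPM (SD, n = 5) to 246 ± 22.1 CPM (SD, n = 12). In RGLS4326 against PBS 3 of 12 rose, namely Gclm and Prdx1 as above and the ferritin heavy chain Fth1 (0.21, adjusted p = 0.0243). Of 8 genes that supply NADPH, the electron source for Gsr, Txnrd1 and Nqo1, 5 were lower and 2 higher with PBS. Total counts gave 2 and 4, and both pairs have the backgrounds just given. Malic enzyme (Me1) fell by 1.28 (SE 0.13, adjusted p = 6.21e-09) and rose by 0.36 with RGLS4326 (adjusted p = 0.0265), transketolase (Tkt) rose by 0.33 with PBS (adjusted p = 0.000102), and Idh1 rose by 0.20 with RGLS4326 (adjusted p = 0.0346).

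The selenoprotein synthesis genes bear on Gpx1, Gpx3, Gpx4 and Txnrd1. Of 6 tested, 5 were lower with PBS and 0 higher (median -0.40, background 36.6% and 37.7%). Total counts gave 3 lower and 1 higher (background 15.6% and 62.6%). Sepsecs, which makes the selenocysteine tRNA from its phosphorylated precursor, fell by 1.13 (SE 0.17, adjusted p = 8.20e-07), from 30.3 ± 1.003 CPM (SD, n = 5) to 13.9 ± 3.70 CPM (SD, n = 12). In RGLS4326 against PBS 0 of 6 passed. The 4 selenoprotein members fell by 0.20 (Gpx1) to 0.75 (Gpx3) with PBS, and the other 5 members that passed fell by 0.50 (Sod1) to 0.89 (Cat); of the former, Gpx1, Gpx4 and Txnrd1 change sign with total counts.

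**Figure D4:**
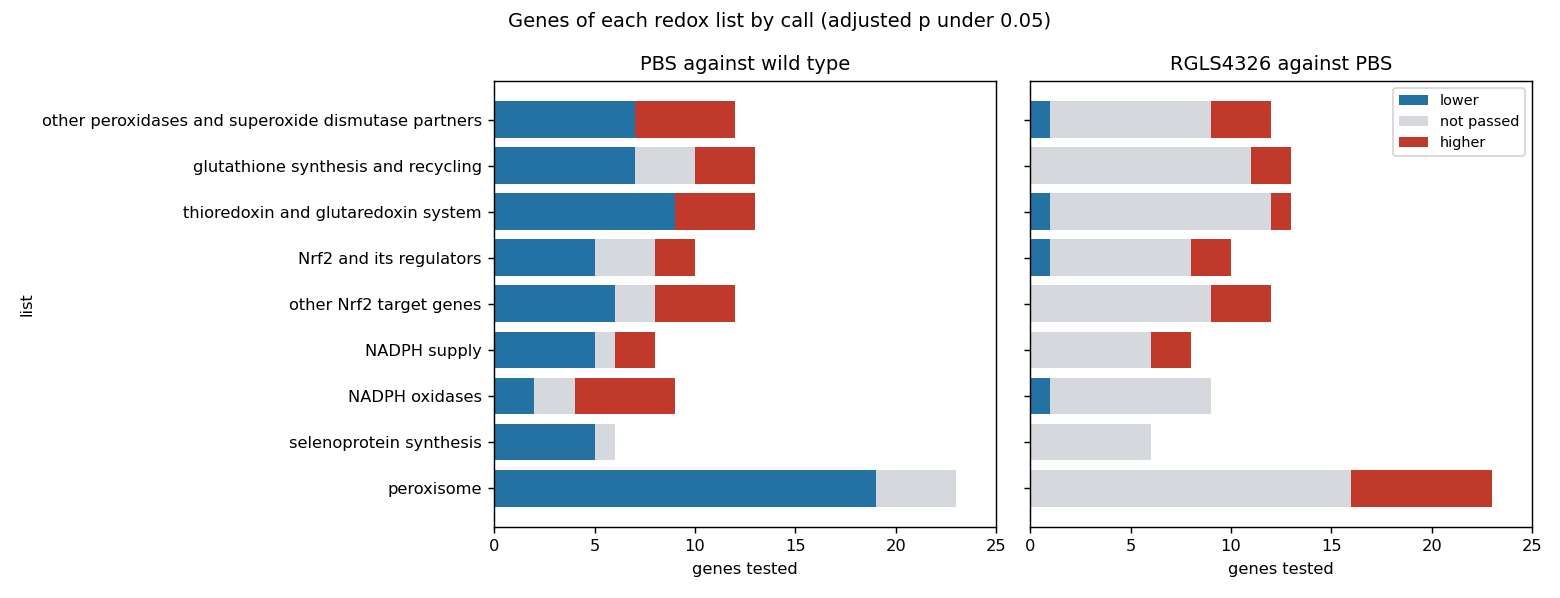
Number of genes tested in each of 9 redox lists (horizontal axes) that were lower, higher or did not pass at an adjusted p of 0.05, for PBS against wild type (left) and RGLS4326 against PBS (right). With PBS the peroxisome list has 19 of 23 genes lower (36.6% of all genes) and the NADPH oxidase list 5 of 9 higher (37.7% of all genes). With RGLS4326 most genes of each list did not pass (79 of 101 over the lists).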

How the data were processed

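Kidneys of 31 mice were profiled by stranded mRNA sequencing. Per the labels and the study's methods, the authors trimmed reads with Trim Galore, used STAR with the GRCm38 genome for mapping, and obtained unique reads per gene from HTSeq 0.6.1; the deposited values are raw counts for 23509 genes, without normalization. The annotation and strand setting used for counting are not given in the sources used here, so genes that overlap cannot be separated with certainty. Between 26.9% and 31.1% of each file's counts were on rows that name no gene, and these were left out.

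Groups and replicate numbers came from the labels. Genes passing edgeR's default expression filter (15185) were scaled by TMM and fitted with edgeR 4.0.16 (R 4.3.3) by its quasi-likelihood test in 1 model of all mice, with Benjamini-Hochberg adjustment. SEs are approximate, derived from the estimate and the F statistic. Nothing in the labels says how the mice were sampled beyond being separate mice, so p-values measure the spread between them. Exon lengths and 3′ UTRs came from GENCODE vM21, promoters and microRNAs from RefSeq. Permutation tests were two-sided with 100000 resamples, and correlations used a pseudocount of 1. Other steps ran in Python 3.11.15 (numpy 2.4.6, pandas 2.3.3, matplotlib 3.10.9). The fit and the permutation routine were tested on simulated data.

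The 10 members and the lists were chosen with earlier results of these data known. Other genes are named by rule: in each list the largest rise and fall in PBS against wild type among genes passing with a mean of at least 1 CPM, and up to 3 genes passing in RGLS4326 against PBS. A gene that this rule picks in the peroxisome list is not reported here. Alternatives were DESeq2 1.42.0, RLE factors, no filter, 2 groups only, the library number series, the replicate block, a size limit of 0.5, a pseudocount of 5 and leaving out each mouse; total counts in place of TMM and the relations as deviations from series means were chosen after seeing the data.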

Additional observations from a re-analysis of the deposited data

Results flagged for a closer look

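Each member was checked for a mouse far from the others by Dixon's test of a gap against the range in the wild-type group, which chance passes in about 1 of 20 tests; 10 tests were made. The larger groups were not tested. In Cat, wild-type mouse 1 was far above the other 4, at 1380 CPM with the next at 1245 CPM. In Gpx3, wild-type mouse 5 was far below the other 4, at 17719 CPM with the next at 20252 CPM. Both values lie outside the range of the PBS-treated mice, and the calls of Cat and Gpx3 in PBS against wild type held when either mouse was left out.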

How the results depend on the processing

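For the members in PBS against wild type, RLE factors, no filter, the series as a covariate and DESeq2 kept 9 lower. All genes lower in these fits were, in turn, 5543 of 15185, 29.5%, 5515 of 15185 and 36.6%. The fit of 2 groups only gave 8 (34.5% of all genes). The replicate block also gave 8 (36% of all genes), series 1 and 2 alone 6 and 7 (25.6% and 22.1%), and the size limit of 0.5 gave 5 (17.8%). Total counts gave 6 lower and 2 higher (15.6% and 62.6%). Series 3 has 1 wild-type mouse, and its fold changes for Cat, Sod2, Gpx1 and Gpx4 are given above. With total counts Gpx1, Gpx4 and Txnrd1 changed sign (0.159, 0.0903 and 0.0628 in PBS against wild type, -0.0194, -0.0731 and -0.0273 in RGLS4326 against PBS, 0.14, 0.0172 and 0.0355 in RGLS4326 against wild type), and Srxn1 was -0.0931 in RGLS4326 against PBS; the shift of the median of all genes accompanies these. Srxn1, which did not pass in these fits, was -0.0958, -0.0329 and -0.129 in the 3 comparisons in series 3 alone and, with 1 mouse left out, -0.0178 (without wild-type mouse 1) to 0.104 in PBS against wild type, and Txnrd1 was -0.00025 in series 3 in RGLS4326 against PBS; the cause was not tested.

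For RGLS4326 against PBS the 5 members higher became 3 without the filter (5.11% of all genes higher), 3 with 2 groups only (5.25%), 3 with total counts (3.63%), 0 in each series alone (0 genes by edgeR, with 280, 2981 and 3045 at an unadjusted p under 0.05) and 0 with the size limit. In RGLS4326 against wild type 8 lower became 0 in series 2 (0.632% of all genes lower), 0 in series 3 (7.75%), 2 with the size limit (11.3%) and 3 with total counts (13.7%), which also gave 1 higher. Without 1 mouse at a time there were 8 to 9 members lower and 0 to 0 higher in the first comparison, 2 to 6 higher and 0 to 0 lower in the second, and 8 to 8 lower and 0 to 0 higher in the third. Gpx1 lost its call in PBS against wild type without wild-type mouse 1 or 5, with 2 groups only (adjusted p = 0.0843) and in each series alone, and Gpx4 in each series alone.

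Same-numbered mice are different animals. The correlation of their deviations averaged -0.05 over 12 pairs of RGLS4326 and PBS mice (-0.40 to 0.42, 4 of 12 above 0.1). It averaged 0.06 over 5 pairs of PBS and wild-type mice (-0.04 to 0.18), and -0.02 over 5 pairs of RGLS4326 and wild-type mice (-0.12 to 0.09). Values this scattered cannot exclude a block shared by number, so a fit with that block is given. With the replicate block, 8 members stayed lower in PBS against wild type (36% of all genes) and 8 in RGLS4326 against wild type (31.5%). In RGLS4326 against PBS 0 members were higher (1.32% of all genes, edgeR's adjusted p of the 5 from 0.0613 to 0.114). Pathway list genes in that comparison were 2 higher and 1 lower.

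For the pathway lists in PBS against wild type, 23 higher became 13, 15 and 9 in the 3 series alone, 13 with the size limit and 42 with total counts, and 63 lower became 38 in series 2, 33 in series 3, 30 with the size limit and 32 with total counts. In RGLS4326 against PBS 18 higher and 4 lower became 0 and 0 in each series alone and with the size limit, and 10 and 19 with total counts, while DESeq2 gave 29 higher. In RGLS4326 against wild type 17 higher became 0 in series 2, 8 in series 3, 11 with the size limit and 37 with total counts, and 58 lower became 2, 13, 17 and 27. Leaving out mice gave 21 to 25 higher and 59 to 63 lower, 4 to 33 higher and 0 to 10 lower, and 14 to 18 higher and 52 to 59 lower in the 3 comparisons.

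Of 20 relations to proximal tubule markers 9 passed, with a pseudocount of 5 again 9, with deviations from the series means 9, without RGLS4326 mouse 9 10 and with total counts 8. Signs changed in RGLS4326-treated mice for Txnrd1 (-0.0380) and Srxn1 (0.0825) without mouse 9, and with total counts for Gpx1 (-0.19), Gpx4 (-0.34), Nqo1 (-0.0392) and Txnrd1 (-0.48), and in PBS-treated mice for Gpx4 (-0.15) and Txnrd1 (-0.64). Counts per member ran from 523 to 406481 per mouse, which sets the counting error of each value.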

Other observations

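Peroxisomes house catalase. Of 23 peroxisome genes tested, 19 were lower and 0 higher in PBS against wild type (median log2 fold change -0.47, background 36.6% and 37.7%). In RGLS4326 against PBS 7 were higher and 0 lower (median 0.13, background 9.15% and 6.66%). With total counts the splits were 11 lower and 7 higher (background 15.6% and 62.6%), and 4 higher and 2 lower (3.63% and 27.2%). Without RGLS4326 mouse 9, 2 were higher and 0 lower in RGLS4326 against PBS (4.66% and 3.48%). The import factor Pex13 rose by 0.30 (adjusted p = 0.0102) and the fatty acid oxidation enzyme Ehhadh by 0.42 (adjusted p = 0.0304; 0.0515 without that mouse) with RGLS4326.

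NADPH oxidases make superoxide or hydrogen peroxide. Of 9 genes of these complexes tested, 5 were higher and 2 lower with PBS (background 37.7% and 36.6%). Total counts gave 6 and 2 (background 62.6% and 15.6%). Ncf1, a subunit of the phagocyte oxidase, rose by 2.45 (SE 0.29, adjusted p = 2.51e-08), from 2.43 ± 0.397 CPM (SD, n = 5) to 13.3 ± 2.99 CPM (SD, n = 12), beside 9 of 9 macrophage markers higher, whose part in this was not tested. Nox4, the oxidase of kidney tubules, fell by 1.76 (SE 0.22, adjusted p = 4.85e-08), from 334 ± 20.4 to 98.9 ± 33.4 CPM. With RGLS4326 only Noxo1 of the 9 passed, and it fell by 0.48 (SE 0.14, adjusted p = 0.0271).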
